A study of Sus scrofa with 6 samples.

Results

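Genes for subunits of the mitochondrial respiratory chain and of the ATP synthase were followed in 6 samples of pig cells, each on an Affymetrix array of the pig genome. A gene was counted when a probe set carried exactly 1 symbol starting with NDUF, SDH, UQCR or ATP5, or with COX4 to COX8, leaving out the assembly factors and pseudogenes. This gave 60 of the 6765 genes with a symbol, on 75 probe sets: 33 genes of complex I, 4 of complex II, 2 of complex III, 7 of complex IV and 14 of complex V. For the 12 genes with several probe sets, the 1 with the highest mean over the 6 arrays was used.

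The samples were 2 somatic cultures, porcine embryo fibroblasts (PEF) and porcine amniotic fluid stem cells (PAFSC), and 4 porcine induced pluripotent stem (iPS) lines. The labels give the lines by stage-specific embryonic antigens (SSEA), which are surface glycans used as pluripotency markers: PS24 carried SSEA1, SSEA3 and SSEA4, 30AC5 carried SSEA1, and iPF4-2 and iPSCs-w carried SSEA3 and SSEA4. By the series' design text, lines made in the submitters' laboratory were set against lines from other laboratories. Cells were cultured in DMEM with serum, and the iPS lines were kept on inactivated mouse feeder fibroblasts. No reprogramming method, strain or animal age is given in the sources used here. Each line or culture is 1 sample on 1 array, so every p-value measures only the spread between these samples.

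The respiratory chain sits in the inner mitochondrial membrane. Complex I takes electrons from NADH and complex II from succinate, complex III passes them to cytochrome c, and complex IV gives them to oxygen, while complexes I, III and IV pump protons. Complex V, the ATP synthase, lets the protons back and makes ATP. Pluripotent cells are known for relying strongly on glycolysis, and somatic cells change their mitochondria as they are reprogrammed. All subunits measured here are encoded in the nucleus.

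Each probe set has its own zero on the log2 scale, so the level of 1 gene cannot be set against that of another. PAFSC stood apart from the other arrays: its values over all 23999 probe sets had an SD of 2.01 against 0.610 to 0.808 elsewhere, and a median of 0.70 against -0.06 to 0.05. The mean difference between 5′ and 3′ control probe sets for pig GAPDH, actin and EF1a was 1.90 in PAFSC, -1.90 in PS24 and -0.03 to 0.19 on the other 4 arrays. Given the separate zeros, this difference can be compared between arrays but is no 5′ to 3′ ratio within an array. The part of these array differences in the results below was not tested, and the differences from somatic cells are given with and without PAFSC. Of the marker genes, 8 of 9 measured fibroblast genes were lower in all 4 iPS lines than in PEF. POU5F1, a core pluripotency factor, read 3.68 in iPF4-2 and 3.61 in iPSCs-w but 0.07 in PS24 and -0.07 in 30AC5, against -0.50 in PEF and 1.09 in PAFSC. Of the 6 measured pluripotency genes, iPSCs-w was above both somatic cultures in 6, iPF4-2 in 5, and PS24 and 30AC5 in 1 each (CDH1, epithelial cadherin), and all 6 were lower in both SSEA1 lines than in both others.

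The subunits as a whole lay low in both somatic cultures. Their median was -0.34 in PEF and -1.67 in PAFSC, against 0.05 in PS24, 0.07 in iPF4-2, 0.04 in iPSCs-w and -0.01 in 30AC5. The 4 iPS medians were within 0.1 of 0, as were those over all probe sets (0.00 to 0.05), so this nearness was not particular to the subunits. The subunit median of PEF lay below those of all 4 lines, with PAFSC lower still. In bulk samples, less RNA per cell and fewer cells of a type cannot be told apart. The median difference of the iPS lines from both somatic samples was 1.06 over the subunits and -0.34 over all probe sets, and 53 of 60 subunits (88.3%) had a positive difference, against 39.1% of all probe sets. Much of this size came from PAFSC: against PEF alone, the median difference was 0.39 over the subunits and 0.13 over all probe sets, and 54 of 60 were positive, against 61.4% of all probe sets.

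**Figure D1:**
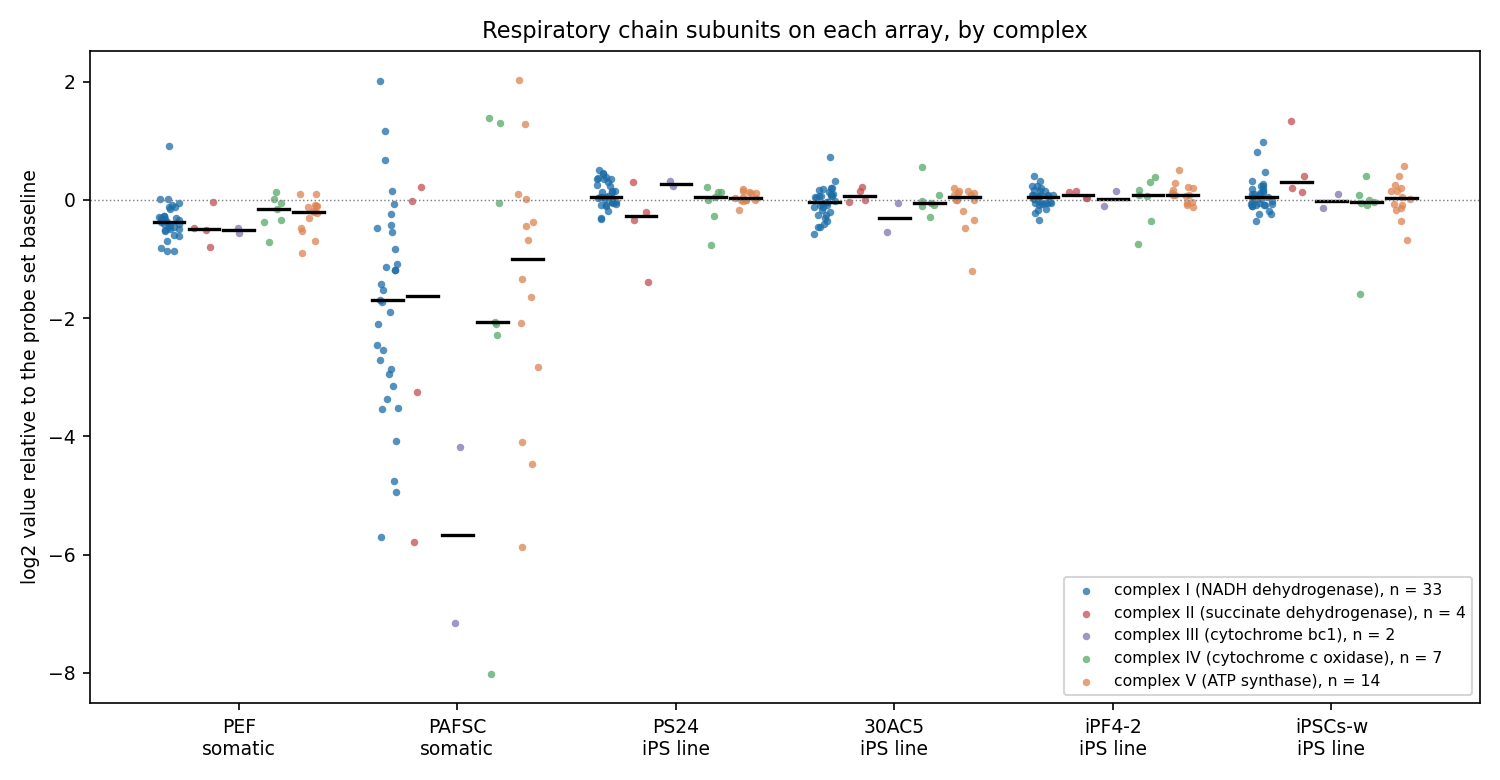
Log2 value of each of the 60 subunits (points) on each of the 6 arrays, coloured by complex, with black bars for the median of a complex. PEF medians lie between -0.52 and -0.15, the PAFSC array spreads from -8.01 to 2.02, and most values of the 4 iPS lines lie close to 0.

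No subunit passed the limma test against the 2 somatic samples at a Benjamini-Hochberg adjusted p of 0.05 (6 of 23999 probe sets did, 0.025%). At an unadjusted p under 0.05 in limma, 22 of the 60 subunits were higher in the iPS lines and 0 were lower, against 8.25% and 5.40% of all probe sets. When PEF was left out, so that PAFSC alone stood for the somatic cells, 45 subunits passed, as did 14303 of all probe sets. In limma without PAFSC 0 of 60 subunits passed, against 0.567% of all probe sets. Here 5 subunits (8.33%) were higher and 0 lower at an unadjusted p under 0.05, where all probe sets gave 5.71% higher and 6.61% lower, and the smallest adjusted p of a subunit was 0.274 (limma).

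Counted by separation, 41 of 60 subunits (68.3%) had all 4 iPS lines above PEF, where 32.4% of all probe sets did. Over the 6765 genes with a symbol the share was 35.9%. With PAFSC added, 35 subunits (58.3%) had all 4 lines above both somatic samples, against 11.9% of all probe sets. Below PEF in all 4 lines were 3 subunits, NDUFA1, COX7A1 and ATP5I (background 19.1%), and COX7A1 and ATP5I were also below PAFSC in every line (background 9.99%). Each line by itself lay above PEF in most subunits: 52 of 60 in PS24 (median 0.32), 54 in iPF4-2 (0.39), 50 in iPSCs-w (0.40) and 50 in 30AC5 (0.31). Over all probe sets the shares above PEF were 55.8% to 61% by line. Other housekeeping genes shared much of this: all 4 lines were above PEF in 32 of 58 ribosomal protein genes (55.2%) and 20 of 40 proteasome subunit genes (50%), with smaller median differences of 0.13 and 0.18. These families were chosen with the data known, and the difference from them was not tested.

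**Figure D2:**
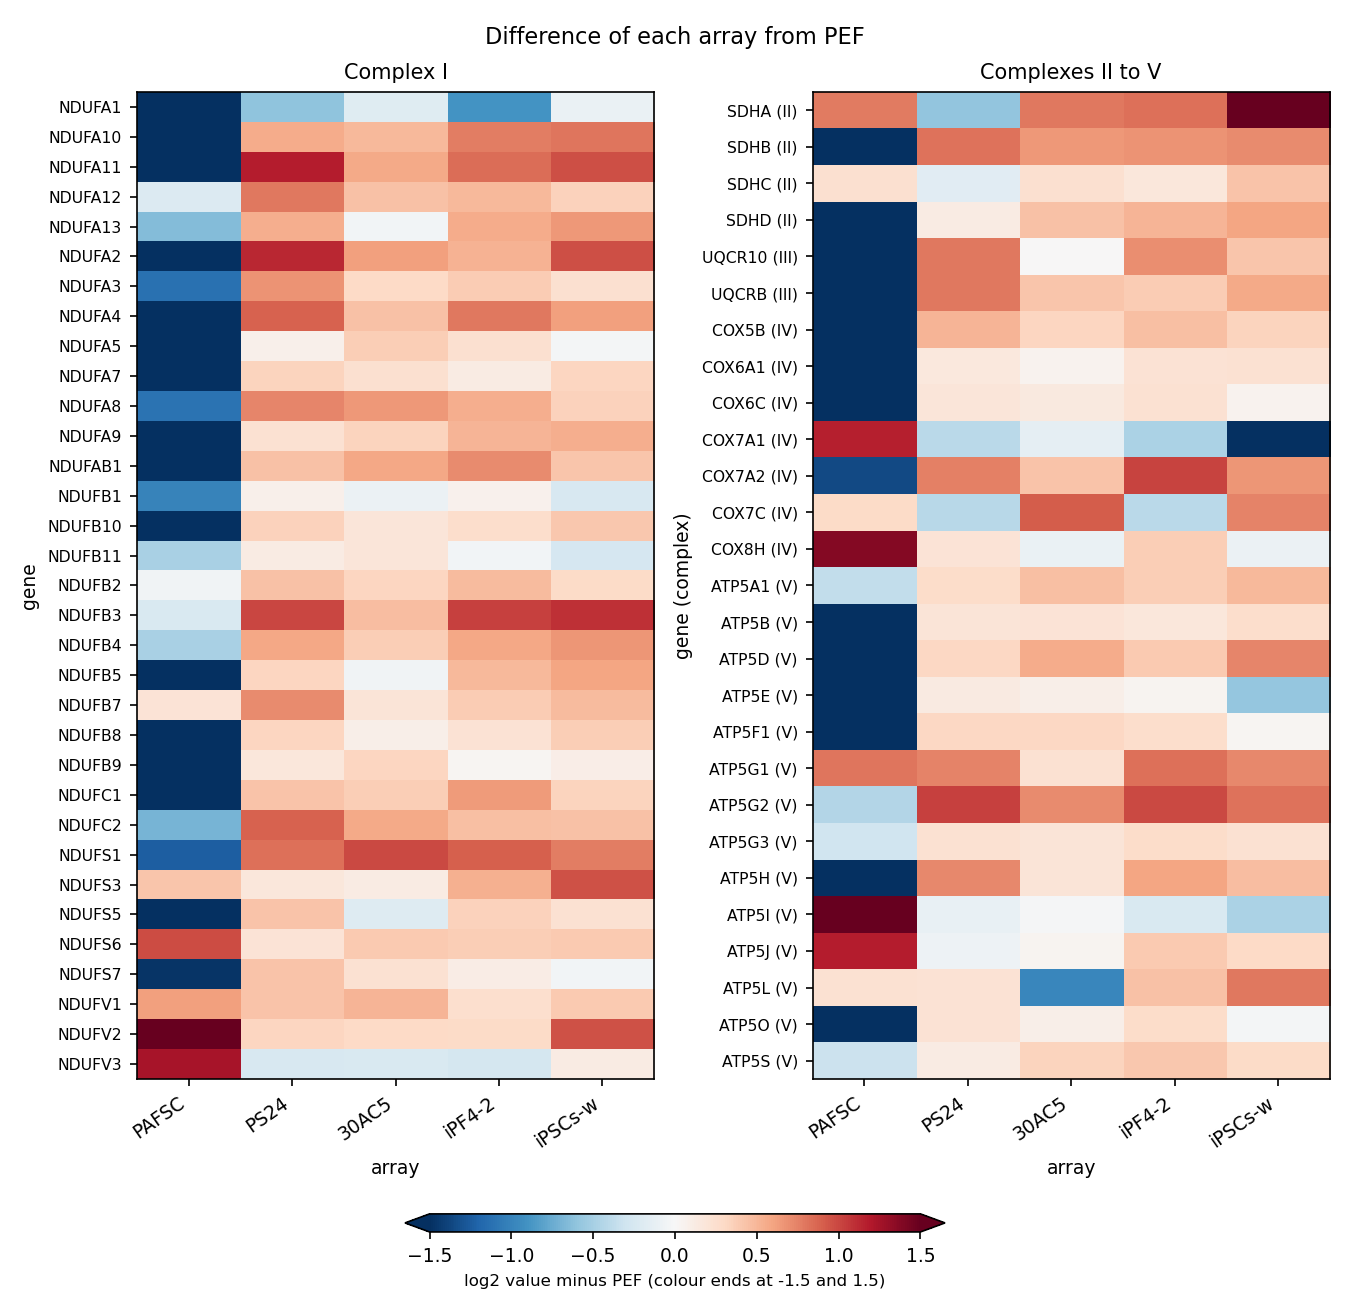
Difference of each array from PEF (log2 value minus PEF, colour scale ending at -1.5 and 1.5) for the subunits of complex I and of complexes II to V. Rows are genes and columns arrays. Red fills most cells of the 4 iPS columns, 41 of 60 rows being red in all 4, while the PAFSC column is mainly dark blue with 6 rows more than 1 unit above PEF.

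Complex I, the NADH dehydrogenase, had a median of -0.38 in PEF, -1.69 in PAFSC and -0.03 to 0.05 in the iPS lines. Of its 33 subunits, 24 had all 4 lines above PEF, against 32.4% of all probe sets. The median difference was 0.40 from PEF and 1.01 from both somatic samples. NDUFS1, the largest subunit of the matrix arm and a carrier of iron-sulfur clusters, read -0.86 in PEF and -2.10 in PAFSC, against -0.04 in PS24, 0.04 in iPF4-2, -0.10 in iPSCs-w and 0.13 in 30AC5. The lines were close to each other and all well above both somatic samples. Its difference from PEF was 0.87 with a standard error (SE) of 0.25, the smallest limma adjusted p of the 60 subunits (0.274).

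NDUFA11, an accessory subunit of the membrane arm, followed the same order with -0.82 in PEF and -2.86 in PAFSC, against 0.35 in PS24, 0.01 in iPF4-2, 0.15 in iPSCs-w and -0.26 in 30AC5. NDUFB3, also an accessory membrane arm subunit, read -0.87 in PEF and -1.09 in PAFSC, against 0.14 in PS24, 0.16 in iPF4-2, 0.23 in iPSCs-w and -0.40 in 30AC5. In both genes 30AC5 was the lowest of the lines but still above PEF. The differences from PEF were 0.89 (SE 0.32) for NDUFA11 and 0.90 (SE 0.34) for NDUFB3, with limma adjusted p of 0.366 and 0.387. The second NDUFB3 probe set read -0.14 in PEF and -0.09 in 30AC5, so its iPS lines were closer to PEF.

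The measured core subunits, those with counterparts in the bacterial enzyme, were NDUFV1, NDUFV2, NDUFS1, NDUFS3 and NDUFS7. NDUFV1, which binds NADH and FMN, read -0.47 in PEF and 0.15 in PAFSC, against -0.04 in PS24, -0.22 in iPF4-2, -0.08 in iPSCs-w and 0.04 in 30AC5. Its partner NDUFV2 read 0.02 in PEF and 2.01 in PAFSC, against 0.35 in PS24, 0.31 in iPF4-2, 0.98 in iPSCs-w and 0.32 in 30AC5. Both had every line above PEF, but PAFSC above every line. NDUFS3, another matrix arm subunit, read -0.48 in PEF and -0.07 in PAFSC, against -0.31 in PS24, 0.04 in iPF4-2, 0.48 in iPSCs-w and -0.36 in 30AC5. NDUFS7, which carries the last iron-sulfur cluster before ubiquinone, read -0.06 in PEF and -1.53 in PAFSC, against 0.37 in PS24, 0.06 in iPF4-2, -0.10 in iPSCs-w and 0.17 in 30AC5. NDUFS7 was the 1 core subunit with a line, iPSCs-w, below PEF.

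The 5 core and 28 supernumerary subunits gave nearly the same median difference of the iPS lines from PEF, 0.45 and 0.40, but 0.24 and 1.27 from both somatic samples. They parted in PAFSC, where the core median was -0.07 and the supernumerary median -1.81. The core medians of 0.45, 0.24 and -0.07 are each the value of NDUFS3 on the probe set used. In PAFSC the 5 core genes ran from -2.10 to 2.01. Of the core genes NDUFS3 and NDUFV2 have 3 probe sets each. The other probe sets of NDUFS3 read -1.35 and -1.65 in PAFSC, so the core median there rested on the choice of that probe set. The difference between core and supernumerary genes was not tested. NDUFC1, a supernumerary subunit of the membrane arm, read -0.40 in PEF and -5.70 in PAFSC, against 0.03 in PS24, 0.23 in iPF4-2, -0.06 in iPSCs-w and -0.03 in 30AC5, the widest PEF to PAFSC gap of complex I (5.30). NDUFA4, by its symbol a complex I gene but known to be bound to complex IV, read -0.38 in PEF and -1.89 in PAFSC, against 0.50 in PS24, 0.41 in iPF4-2, 0.24 in iPSCs-w and 0.06 in 30AC5, with all lines above both somatic samples.

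Complex II, succinate dehydrogenase, is also an enzyme of the citric acid cycle, and all 4 of its subunits were measured. Their median difference was 0.56 from PEF and 1.24 from both somatic samples. SDHB, the iron-sulfur subunit, read -0.51 in PEF and -3.25 in PAFSC, against 0.30 in PS24, 0.16 in iPF4-2, 0.20 in iPSCs-w and 0.14 in 30AC5. Its lines lay within 0.2 of each other and above both somatic cultures, at 0.71 above PEF (SE 0.25, limma adjusted p = 0.346). SDHD, a membrane anchor, read -0.47 in PEF and -5.78 in PAFSC, against -0.34 in PS24, 0.03 in iPF4-2, 0.13 in iPSCs-w and -0.03 in 30AC5. The other anchor, SDHC, read -0.03 in PEF and 0.21 in PAFSC, against -0.20 in PS24, 0.13 in iPF4-2, 0.40 in iPSCs-w and 0.22 in 30AC5. Of the anchors SDHD but not SDHC was low in PAFSC, and both had PS24 as the lowest line.

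SDHA, the flavoprotein that oxidises succinate, gave the widest spread of any subunit among the iPS lines. Its value was -0.80 in PEF and -0.02 in PAFSC, against -1.39 in PS24, 0.03 in iPF4-2, 1.34 in iPSCs-w and -0.01 in 30AC5, an SD of 1.11 over the lines (n = 4). PS24 lay below the other lines, and below PEF, and iPSCs-w lay above them. PS24 is also the array whose 5′ to 3′ control difference was -1.90, and its part in the low value was not tested. The second SDHA probe set did not repeat this: it read 0.15 in PS24, -0.00 in iPF4-2, 0.14 in iPSCs-w and 0.04 in 30AC5, all above -0.85 in PEF and -3.34 in PAFSC. Both SDHA probe sets thus had PEF below 3 or 4 of the lines, while the spread between lines rested on 1 probe set.

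**Figure D3:**
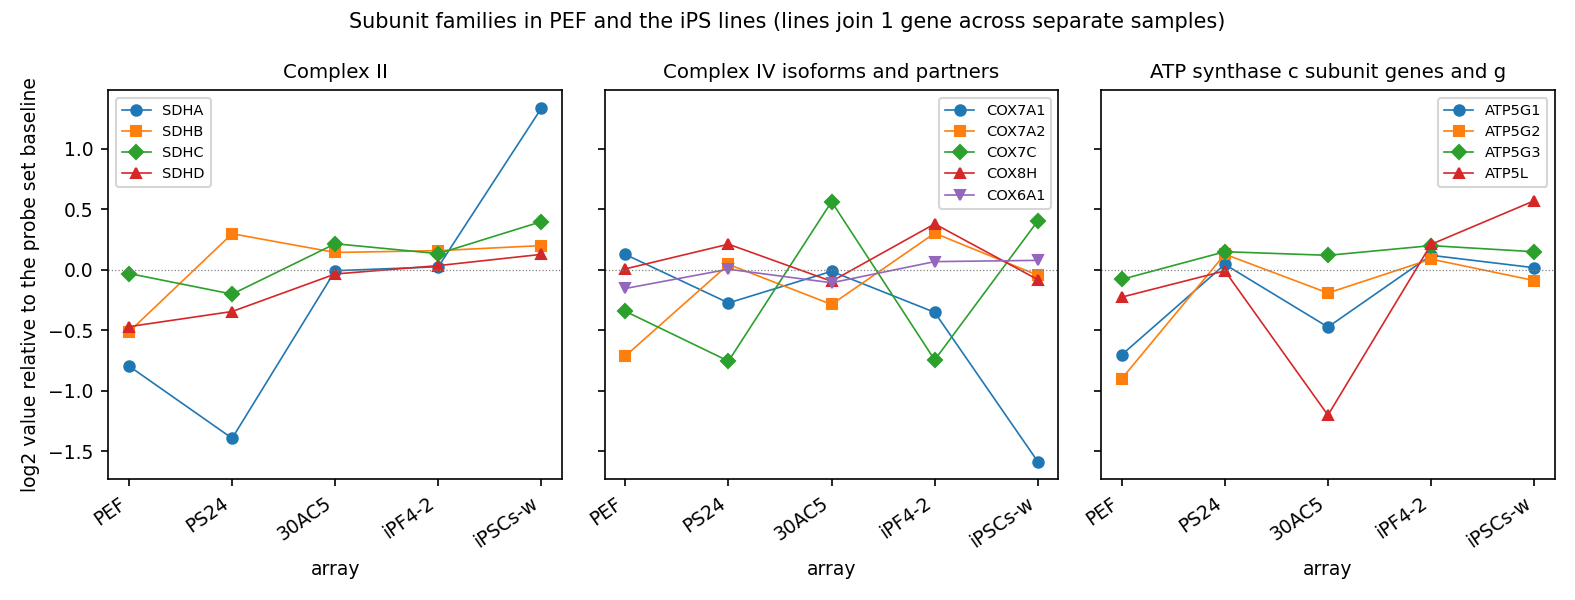
Log2 values of complex II subunits, of complex IV subunits, and of the ATP synthase c subunit genes with ATP5L, in PEF and the 4 iPS lines (PAFSC not drawn). Lines only join the values of 1 gene across separate samples. SDHA runs from -1.39 to 1.34, COX7A1 drops to -1.58 in iPSCs-w, and ATP5L to -1.20 in 30AC5.

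Complex III was represented by 2 small subunits, with a median difference of 0.51 from PEF and 3.09 from both somatic samples. UQCRB, a ubiquinone-binding subunit, read -0.47 in PEF and -7.15 in PAFSC, against 0.32 in PS24, -0.10 in iPF4-2, 0.09 in iPSCs-w and -0.05 in 30AC5. UQCR10 read -0.56 in PEF and -4.18 in PAFSC, against 0.23 in PS24, 0.14 in iPF4-2, -0.14 in iPSCs-w and -0.55 in 30AC5. Both had every line above both somatic samples, but for UQCR10 the 30AC5 line was level with PEF. Against PEF the differences were 0.54 (SE 0.29) and 0.48 (SE 0.38), with limma adjusted p of 0.538 and 0.688.

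Complex IV, cytochrome c oxidase, was represented by nuclear subunits that surround its catalytic core. Their median difference from PEF was 0.17, the smallest of the 5 complexes and close to the 0.13 of all probe sets. In all lines 4 of 7 were above PEF, against 32.4% of all probe sets. From both somatic samples the median difference was 1.14, above that of complexes I and V. COX5B, which binds zinc, read -0.37 in PEF and -2.28 in PAFSC, against 0.14 in PS24, 0.08 in iPF4-2, -0.04 in iPSCs-w and -0.05 in 30AC5. COX6C read -0.06 in PEF and -8.01 in PAFSC, against 0.13 in PS24, 0.17 in iPF4-2, -0.00 in iPSCs-w and 0.09 in 30AC5. COX6C had the lowest PAFSC value of any subunit, while its other 5 arrays lay between -0.06 and 0.17. COX6A1, the form of subunit 6A found outside heart and muscle, read -0.15 in PEF and -2.11 in PAFSC, against 0.00 in PS24, 0.07 in iPF4-2, 0.08 in iPSCs-w and -0.11 in 30AC5.

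The subunit 7A isoforms lay on opposite sides of the somatic samples. COX7A1, the isoform of heart and skeletal muscle, read 0.13 in PEF and 1.29 in PAFSC, against -0.27 in PS24, -0.35 in iPF4-2, -1.58 in iPSCs-w and -0.01 in 30AC5. All lines were below both somatic samples, and iPSCs-w was far below the rest. COX7A2, the widely expressed isoform, read -0.71 in PEF and -2.06 in PAFSC, against 0.04 in PS24, 0.30 in iPF4-2, -0.04 in iPSCs-w and -0.29 in 30AC5, all lines above both somatic samples. Against PEF, COX7A1 differed by -0.68 (SE 0.63, limma adjusted p = 0.731) and COX7A2 by 0.72 (SE 0.31, limma adjusted p = 0.447), and the difference between the isoforms was not tested. COX8H, the heart form of subunit 8, read 0.01 in PEF and 1.38 in PAFSC, against 0.21 in PS24, 0.38 in iPF4-2, -0.08 in iPSCs-w and -0.09 in 30AC5, so that it shared the high PAFSC value of COX7A1 but not its order among the lines.

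COX7C, another small subunit, split the lines in pairs that cut across the surface antigens. Its probe set read -0.34 in PEF and -0.06 in PAFSC, against -0.75 in PS24, -0.75 in iPF4-2, 0.40 in iPSCs-w and 0.56 in 30AC5. The other COX7C probe set read -0.09 in PS24, 0.03 in iPF4-2, 0.02 in iPSCs-w and -0.07 in 30AC5, with -0.23 in PEF and -3.24 in PAFSC, so the split appeared in 1 of 2 probe sets.

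**Figure D4:**
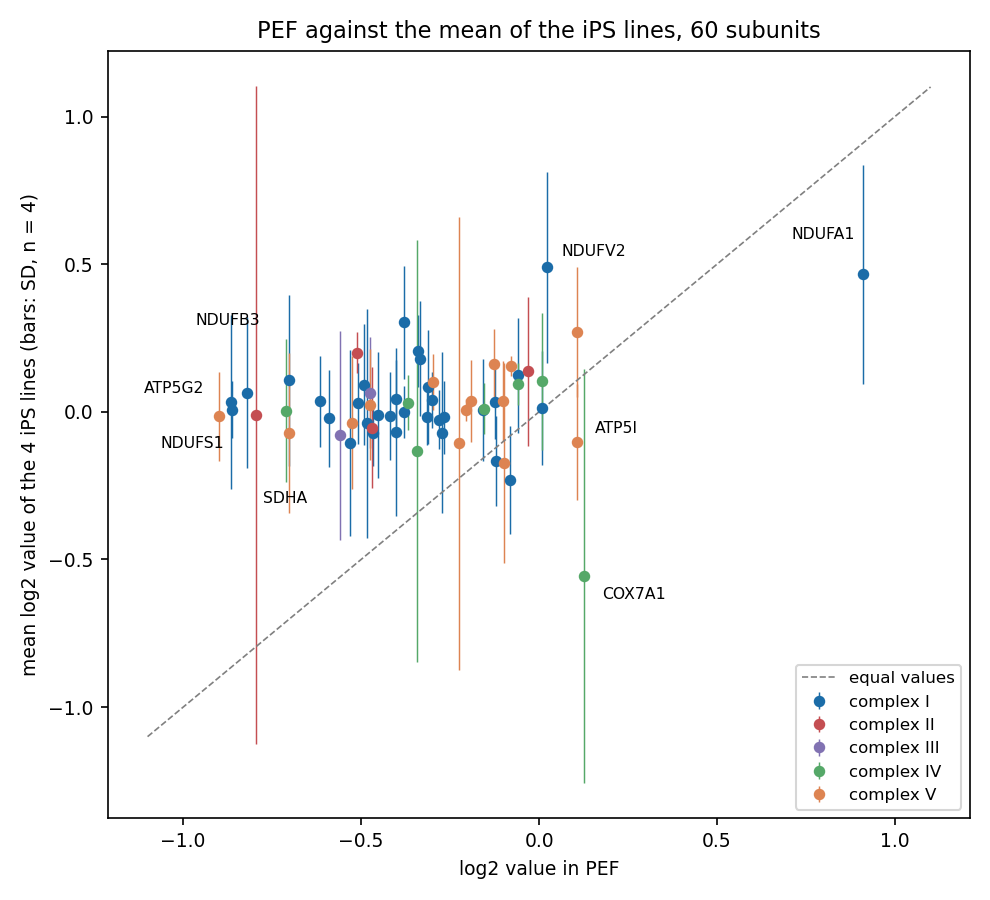
Mean log2 value of the 4 iPS lines (bars, SD, n = 4) against the value in PEF for each of the 60 subunits, coloured by complex. The dashed line marks equal values: 54 subunits lie above it, and the wide bars belong to SDHA, ATP5L, COX7C and COX7A1.

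In complex V the lines were close to PEF in most subunits, with a median difference of 0.23. In all lines 9 of 14 subunits were above PEF, against 32.4% of all probe sets. From both somatic samples the median difference was 0.75, the smallest of the 5 complexes. Without ATP5S, which was counted by its symbol, the medians were 0.91 from both somatic samples and 0.23 from PEF. The alpha and beta subunits of the catalytic head varied little among the lines: ATP5B, the catalytic beta subunit, read -0.21 in PEF and -2.08 in PAFSC, against -0.01 in PS24, -0.03 in iPF4-2, 0.06 in iPSCs-w and 0.01 in 30AC5. ATP5A1, the alpha subunit, read -0.30 in PEF and -0.67 in PAFSC, against -0.02 in PS24, 0.07 in iPF4-2, 0.19 in iPSCs-w and 0.16 in 30AC5. In both, each line was above both somatic samples. The delta subunit ATP5D did the same with a wider range, reading -0.47 in PEF and -2.82 in PAFSC, against -0.16 in PS24, -0.08 in iPF4-2, 0.26 in iPSCs-w and 0.08 in 30AC5.

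The c subunits form the rotating ring of the synthase, and 3 genes encode the same mature protein with different import sequences. ATP5G1 read -0.70 in PEF and 0.10 in PAFSC, against 0.04 in PS24, 0.12 in iPF4-2, 0.02 in iPSCs-w and -0.47 in 30AC5. ATP5G2 read -0.90 in PEF and -1.34 in PAFSC, against 0.13 in PS24, 0.09 in iPF4-2, -0.09 in iPSCs-w and -0.19 in 30AC5. ATP5G3 read -0.08 in PEF and -0.37 in PAFSC, against 0.15 in PS24, 0.20 in iPF4-2, 0.15 in iPSCs-w and 0.12 in 30AC5. All 3 genes had every line above PEF, and ATP5G3 varied least among the lines of all subunits (SD 0.034, n = 4). The differences from PEF were 0.63 (SE 0.33) for ATP5G1, 0.88 (SE 0.27) for ATP5G2 and 0.23 (SE 0.24) for ATP5G3, with limma adjusted p of 0.532, 0.296 and 0.755.

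Among the other subunits of the synthase, ATP5I (subunit e) read 0.11 in PEF and 2.02 in PAFSC, against -0.00 in PS24, -0.13 in iPF4-2, -0.36 in iPSCs-w and 0.09 in 30AC5. All lines were below both somatic samples, but its second probe set gave the iPS lines above PEF by 0.29. ATP5F1 (subunit b of the stator) read -0.19 in PEF and -5.88 in PAFSC, against 0.12 in PS24, 0.08 in iPF4-2, -0.17 in iPSCs-w and 0.12 in 30AC5. ATP5E (epsilon) read -0.10 in PEF and -4.09 in PAFSC, against 0.04 in PS24, -0.05 in iPF4-2, -0.68 in iPSCs-w and -0.00 in 30AC5, where iPSCs-w was below PEF and the other lines above. ATP5L (subunit g) read -0.23 in PEF and 0.01 in PAFSC, against -0.01 in PS24, 0.21 in iPF4-2, 0.57 in iPSCs-w and -1.20 in 30AC5. Its low 30AC5 value was shared by both other ATP5L probe sets (-0.96 and -0.54), each lowest in 30AC5 among the lines. In PEF these read -0.51 and -0.54, so by the latter 30AC5 was level with PEF.

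The 2 somatic samples were also set against each other. PEF was above PAFSC by more than 1 log2 unit in 34 of 60 subunits (56.7%), against 25.7% of all probe sets, and below it by as much in 6 of 60, against 44.6%. With 1 sample each there is no replicate check. The median difference of PEF from PAFSC was 1.29 over the subunits and -0.72 over all probe sets. It was 0.60 over the ribosomal protein genes and 0.87 over the proteasome genes, families whose medians also had PEF above PAFSC. In PAFSC 27 of 60 subunits lay below -2, against 3642 of 23999 probe sets. The 6 subunits more than 1 unit higher in PAFSC were NDUFV2, NDUFV3, COX7A1, COX8H, ATP5I and ATP5J. By the second probe set, PEF minus PAFSC was 0.47 for ATP5J and -0.94 for ATP5I, while all NDUFV2 probe sets stayed past 1 unit. Within the PAFSC array the subunits had an SD of 2.21, close to the 2.01 of all its probe sets. After quantile normalization of the arrays, which removes this wider spread, 13 of 60 subunits were above PAFSC in PEF by more than 1 (17.6% of all probe sets). The median difference was then 0.21. Below PAFSC in PEF by more than 1 was 1 of 60 (16.6% of all probe sets), SDHA, and none of the 6 named above. With median centring it was 2 of 60 (26.9%), NDUFV2 and ATP5I.

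Probe sets of the same gene also disagreed most on the PAFSC array. Over the 12 genes with several probe sets, the median range between them was 1.74 on PAFSC and 0.24 to 0.41 on the other arrays, with a largest range of 4.05 for NDUFA1. In NDUFA1, a small membrane arm subunit, the probe set used read 0.91 in PEF and -1.72 in PAFSC, against 0.31 in PS24, 0.01 in iPF4-2, 0.81 in iPSCs-w and 0.73 in 30AC5. The other read -0.51 in PEF and -5.77 in PAFSC, against 0.17 in PS24, 0.08 in iPF4-2, 0.11 in iPSCs-w and -0.14 in 30AC5, so the lines were below PEF by the first and above it by the second. The sign of PEF minus PAFSC differed between probe sets in 6 of the 12 genes, and that of the iPS lines minus PEF in 3. Because the probe set with the highest mean was taken, the choice leaned to probe sets that read high in PAFSC. With the lowest-mean probe set in its place, the median difference of PEF from PAFSC was 1.83.

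**Figure D5:**
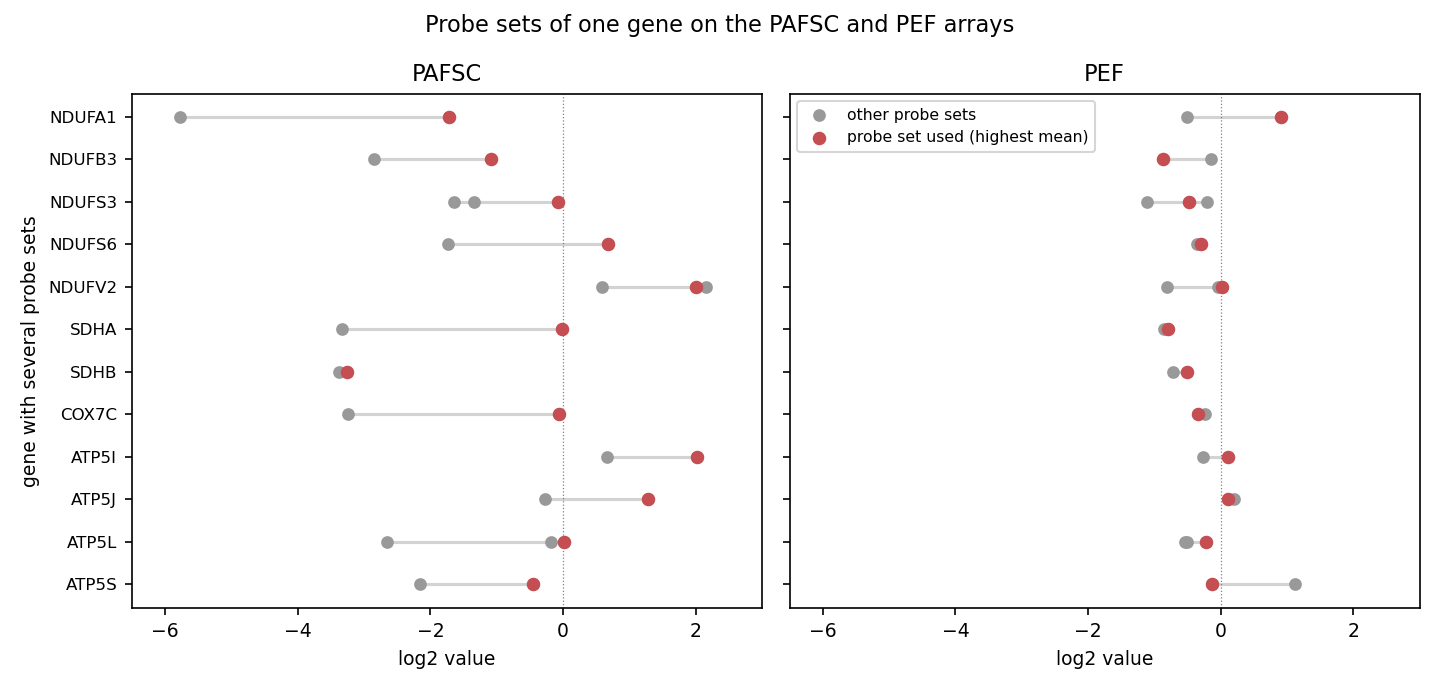
Log2 values of the probe sets of the 12 genes with more than 1, in PAFSC and in PEF on the same axis. Red points are the probe set used and grey points the others. The grey points spread down to -5.77 in PAFSC, while in PEF the probe sets of a gene lie closer together.

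Between the lines, the subunits had a median SD of 0.19 (n = 4), against 0.33 over all probe sets, 0.19 over the proteasome genes and 0.076 over the ribosomal protein genes, so a narrow spread was not particular to them. The 2 lines that carried SSEA1 (PS24, 30AC5) were set against those with SSEA3 and SSEA4 only (iPF4-2, iPSCs-w). No subunit passed in limma (0% of all probe sets did), and at an unadjusted p under 0.05 there were 0 of 60 against 2.84% of all probe sets. Both SSEA1 lines were below both others in 12 of 60 subunits (background 20.2%) and above in 10 of 60 (background 21%), shares near the background. The fit also held PEF and PAFSC as a somatic class, so the gap between them entered its error. With only the 4 iPS lines in the fit, 0 subunits passed as well. The median difference was -0.04, and a shift between the classes was not detected with 2 lines each.

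Among subunits whose classes did not overlap, the lower ones in the SSEA1 lines were led by SDHA, with a difference of -1.38 (SE 0.79). ATP5L followed with -0.995 (SE 0.67), NDUFS3 with -0.60 (SE 0.61) and NDUFB5 with -0.40 (SE 1.30). The SEs of this comparison include the gap between PEF and PAFSC, while the SD over the 4 lines was 0.28 for NDUFB5. On the other probe sets of SDHA and NDUFS3 the classes overlapped. Another NDUFS3 probe set read 0.76 in PS24, against 0.24 in iPF4-2 and 0.54 in iPSCs-w. For ATP5L the classes were apart on some but not all of the others. NDUFB5, an accessory subunit of complex I, read -0.40 in PEF and -4.94 in PAFSC, against -0.08 in PS24, 0.08 in iPF4-2, 0.19 in iPSCs-w and -0.46 in 30AC5. Those higher in the SSEA1 lines were led by COX7A1 with 0.83 (SE 0.74), ATP5E with 0.38 (SE 1.19), NDUFB11 with 0.30 (SE 0.61) and ATP5I with 0.29 (SE 0.77). On the second ATP5I probe set the classes overlapped. NDUFB11, also accessory, read 0.01 in PEF and -0.47 in PAFSC, against 0.14 in PS24, -0.04 in iPF4-2, -0.24 in iPSCs-w and 0.19 in 30AC5. All 8 had a limma adjusted p of 1.0. Single lines set the size in several: 30AC5 was far below the others in ATP5L, and iPSCs-w in COX7A1 and ATP5E.

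By line, 30AC5 was the lowest of the 4 in 23 of 60 subunits (38.3%, against 27.1% of all probe sets). Values below -0.5 in 30AC5 were those of NDUFA13, UQCR10 and ATP5L. iPSCs-w was the highest in 20 (33.3%, against 27.3%), with NDUFA1, NDUFV2, SDHA and ATP5L above 0.5. Most other probe sets of these genes did not repeat this. In iPSCs-w they read 0.11 for NDUFA1, 0.17 and 0.42 for NDUFV2, 0.14 for SDHA, and 0.83 and -0.08 for ATP5L. iPF4-2 held the subunits closest together, with an SD of 0.19 over the 60 values against 0.29 in PS24 and 30AC5 and 0.38 in iPSCs-w. Over all probe sets too, the SD was lowest in iPF4-2 (0.610) and highest among the lines in iPSCs-w (0.729).

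Related genes from lists compiled for this pathway lay mostly above PEF, as did 61.4% of all probe sets. Of the electron carriers and their enzymes 7 of 14 listed genes were measured, and all 7 had a positive difference from PEF (median 0.48). Cytochrome c (CYCS), the carrier between complexes III and IV, read -0.30 in PEF and -5.04 in PAFSC, against -0.16 in PS24, 0.02 in iPF4-2, 0.12 in iPSCs-w and -0.02 in 30AC5. Of 39 assembly factors 14 were measured, all 14 positive (median 0.52) with 9 above PEF in every line, as were 32.4% of all probe sets. Of the regulators of mitochondrial genes 5 of 13 were measured, all 5 positive (median 0.36), and of the exchange and uncoupling genes 9 of 10, with 8 positive (median 0.32). Against both somatic samples the medians were 0.58 for the carriers (6 of 7 positive) and 0.73 for the assembly factors (9 of 14). They were -0.29 for the regulators (2 of 5) and 0.52 for the exchange and uncoupling genes (8 of 9). Over all probe sets the median was -0.34 with 39.1% positive, so with PAFSC the regulators lay near the background. None of these 35 genes passed limma in any of the 3 tests.

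TFAM packages mitochondrial DNA and takes part in its transcription. It read -0.19 in PEF and -0.13 in PAFSC, against 0.56 in PS24, 2.23 in iPF4-2, 1.56 in iPSCs-w and 1.46 in 30AC5. It lay above both somatic samples in every line, by 1.65 over PEF (SE 0.62, limma adjusted p = 0.38), a wider gap than that of any of the 60 subunits. SLC25A5, an ADP/ATP carrier, read -1.09 in PEF and 0.19 in PAFSC, against -0.07 in PS24, 0.04 in iPF4-2, -0.20 in iPSCs-w and 0.03 in 30AC5, so that its PEF value was low and its PAFSC value was not. ATPIF1, the inhibitor of the ATP synthase, read -0.22 in PEF and -4.42 in PAFSC, against 0.27 in PS24, 0.06 in iPF4-2, 0.04 in iPSCs-w and -0.04 in 30AC5, the order shown by most subunits.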

How the data were processed

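Per the labels' protocols, biotin-labelled cRNA from 6 pig cell samples was hybridised to Affymetrix pig arrays, 1 for each sample. The deposited table holds values that were read as log2 from their range; the log base, the baseline of each probe set, the software and the normalization were not given in the sources used here. Control probe sets (124) were left out, leaving 23999, of which 10069 had 1 symbol in the platform annotation, 198 several and 13732 none. Levels were not compared between genes, and the number of arrays limits the precision. Differences were tested with limma 3.58.1 in R 4.3.3 (lmFit, eBayes, two-sided, Benjamini-Hochberg over all 23999, threshold 0.05): 4 iPS lines against 2 somatic samples (4 residual degrees of freedom), against PEF alone (3; the lone sample is assumed to vary like the lines) and SSEA1-carrying against SSEA3/SSEA4-only lines (3). In the fit of the SSEA classes, PEF and PAFSC stayed in as a somatic class. PEF and PAFSC were compared by a log2 difference of 1, with no test. The fits were tested on simulated data. Subunits named with all 6 values were the 3 with the smallest p against PEF and the extremes of PEF minus PAFSC in each complex, the largest differences between SSEA classes, complex II, isoform families and core subunits; NDUFA1, COX7C and the related genes were named after their values were seen. The members and lists were chosen with earlier results of these data known. Alternatives covered scaling, filters, eBayes options, the choice of probe set and leaving out each sample. Promoter and protein sequences were not used here.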

Additional observations from a re-analysis of the deposited data

Results flagged for a closer look

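Dixon's ratio of gap to range was taken in 66 sets of 4 iPS values, the 60 subunits and the medians of all subunits and of each complex. In 8 of them 1 line lay far from the other 3. For independent, normally distributed values chance gives about 1 in 20, but the medians are built from the same subunits. The share over all probe sets was not computed, so the 8 cannot be read as particular to these genes. In 30AC5, NDUFA13 was -0.57 against 0.01 to 0.11 in the others, NDUFB3 was -0.40 against 0.14 to 0.23, and the median of complex I was -0.031 against 0.042 to 0.053. In iPSCs-w, NDUFV2 was 0.98 against 0.31 to 0.35, NDUFV3 was 0.043 against -0.34 to -0.31, ATP5E was -0.68 against -0.05 to 0.04 and ATP5F1 was -0.17 against 0.08 to 0.12. In PS24, NDUFS6 was -0.10 against 0.07 to 0.10. By the second probe set, NDUFB3 in 30AC5 was -0.09 against 0.01 to 0.37, and NDUFS6 in PS24 was -0.05 against 0.43 to 0.58. For NDUFV2, iPSCs-w read 0.42, below 0.85 in PS24, by another probe set. By the third it read 0.17 against -0.09 to -0.02. For NDUFB11 both SSEA1-carrying lines were above PEF and both SSEA3/SSEA4-only lines below it, a difference of 0.30 between the classes with a limma adjusted p of 1.0.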

How the results depend on the processing

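The median difference of the iPS lines from both somatic samples, 1.06, ranged from 0.39 without PAFSC to 1.68 without PEF when each sample was left out, and was 0.37 without PAFSC and PS24 (chosen after seeing the data). It was -0.29 when the lowest 40% of probe sets by mean were left out, a filter that by construction removes genes low in PAFSC and kept 10 of 60 subunits. The number of subunits called, 0, ranged from 0 to 45, with 45 only without PEF. Against PEF alone the median of 0.39 was 0.17 under that filter, 0.32 with median centring and 0.28 with quantile normalization, and 0.33 to 0.42 when each line was left out; 0 subunits were called in any setting. All 4 lines were above PEF in 34 subunits after quantile normalization (24.6% of all probe sets) and in 36 after median centring (26.5%), and the sign of the difference turned for NDUFB11 and, with quantile normalization, ATP5L. For SSEA1-carrying against SSEA3/SSEA4-only lines the median of -0.04 was -0.10 under the filter and -0.11 with quantile normalization, and it ranged from -0.057 to 0.017 when samples were left out, turning without 30AC5; 0 subunits were called in any setting. The median of PEF minus PAFSC, 1.29, was 0.21 with quantile normalization, 2.05 with median centring, 1.47 with probe sets averaged per gene, and 1.83 with either the highest-SD or the lowest-mean probe set; the sign turned for 16 subunits with quantile normalization. The number of probe sets called against PEF, 136, was 17 with quantile normalization, 65 with 1 probe set per gene, 19 without iPF4-2 and 0 when any of the other 3 lines was left out. Causes other than the filter's construction were not tested. No paired analysis was possible because the replicate numbers were given in accession order and the groups have 1 or 2 samples.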
